A study of Mus musculus with 12 samples.

Results

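The genes described here are the integrin and laminin chains of mouse muscle satellite cells, the resident stem cells of skeletal muscle. They were taken from the count tables by symbol (Itga, Itgb, Lama, Lamb and Lamc followed by a chain name), which gave 37 of 55385 genes: 18 integrin alpha chains, 8 integrin beta chains and 11 laminin chains. The study sequenced bulk RNA (full-length cDNA by Smart-Seq2) from satellite cells of C57BL/6J hindlimb muscle, frozen straight after isolation. Its 12 libraries fall into 4 groups of 3 animals: females labelled Keap1 Hetz (genotype field "Keap1 heterogeneous", read here as heterozygous), females labelled Keap1 KO (knockout), males labelled Keap1 Hetz and males labelled Keap1 KO. Every animal therefore carries at least 1 altered Keap1 allele by its label, and there was no wild-type group. The labels used here do not give the animals' age, the Cre driver, the deleted part of Keap1 or how the cells were sorted. Females and males were deposited in separate count tables, so sex and table cannot be told apart, and KO-labelled and Hetz libraries were compared within each table.

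Integrins are membrane receptors made of 1 alpha and 1 beta chain, and they tie the cytoskeleton to the extracellular matrix. Laminins are trimers of 1 alpha, 1 beta and 1 gamma chain that form the basement membrane, the sheet of matrix under which a satellite cell lies against its muscle fibre. The alpha 7 beta 1 integrin is the main laminin-binding integrin of muscle. The laminin with the alpha 2 chain is the main laminin of the fibre's basement membrane. KEAP1, the gene product targeted in the study, holds the transcription factor NRF2 (gene Nfe2l2) at a low level. When KEAP1 is lost, NRF2 acts at antioxidant response elements of genes such as Nqo1, a quinone reductase.

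Each library held 13042039 to 19273245 counted fragments and 19833 to 22602 genes with at least 1 fragment, and 2.20% to 2.98% of the fragments were mitochondrial. Levels of a gene are given as CPM (counts scaled by the library's total). A count of 0 allows a level of up to 0.156 to 0.230 CPM, which is 3 counts of a library's total and covers counting error only. Nqo1 was at 3.72 to 5.66 CPM in the female Hetz and 85.9 to 113 CPM in the female KO-labelled libraries, and at 2.07 to 4.03 and 30.4 to 35.3 CPM in the males. Keap1 itself was at 7.63 to 9.41 CPM in female Hetz, 11.4 to 13.4 CPM in female KO-labelled, 5.18 to 9.74 CPM in male Hetz and 6.07 to 7.502 CPM in male KO-labelled libraries. Counts over the whole gene thus do not check the knockout label, since the deleted part is not given. All 10 satellite cell markers examined had a mean of at least 1 CPM. Their summed level was 12264 to 13331 CPM in female Hetz, 8832 to 10605 CPM in female KO-labelled, 14913 to 16523 CPM in male Hetz and 15989 to 17835 CPM in male KO-labelled libraries, with Sdc4 alone at a mean of 8467 CPM. Of the 10, 3 fell in KO-labelled females and 1 in KO-labelled males (edgeR, adjusted p under 0.05). Over all tested genes 2.27% and 0.861% were called in these comparisons. Sdc4 was not among the called markers in either sex. Markers of fibro-adipogenic progenitors, the connective tissue cells of muscle, were also present (11 of 12 with a mean of at least 1 CPM). Their sums were 4750 to 7617, 4804 to 5415, 2849 to 4433 and 3599 to 4322 CPM in the same order of groups. Most of that sum came from Gsn and Col3a1, at means of 2250 and 1538 CPM. Other markers of the list were low, with Pdgfra at 2.85, Pi16 at 3.17 and Dpp4 at 0.837 CPM. Satellite cells and fibro-adipogenic progenitors both make laminins and integrins. In bulk samples fewer cells of a type and less RNA per cell cannot be told apart.

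Of the 37 chains, 23 were expressed, meaning a mean of at least 1 CPM over the 12 libraries: 9 alpha chains, 5 beta chains and 9 laminin chains. Just above the threshold was Itgb2, the leukocyte beta chain, at 1.05 CPM, and just below it was Itgb6, an epithelial beta chain, at 0.808 CPM. The 14 chains that were not expressed were Itga2, Itga4, Itga9, Itga10, Itgad, Itgae, Itgal, Itgam, Itgax, Itgb3, Itgb6, Itgb7, Lama1 and Lamb3. Their means ran from 0.0185 CPM for Itgad to 0.808 CPM for Itgb6, and 10 of them had at least 1 library at 0. Itga4, an alpha chain that binds VCAM1 and fibronectin, had 0 to 0.560 CPM. Lama1, the laminin alpha chain of the embryo, was at 0.317, 0.415 and 0.431 CPM in female Hetz, 0.0537, 0.0622 and 0 CPM in female KO-labelled and 0 to 0.0652 CPM in male libraries. The female groups of Lama1 did not overlap, but the KO-labelled and male values lie under the level that a count of 0 allows, and Lama1 did not pass the count filter for the test. Itgam shares 68.7% and Itga10 shares 33.5% of its exon length with another annotated gene, so their counts are uncertain.

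Levels of different genes were compared in FPKM, the CPM divided by the exon length in kilobases. On that scale the alpha chains Itga7, Itga5 and Itgav stood above all others. Itga7, a laminin receptor chain of muscle, had a mean of 52.1 FPKM. Itga5, the fibronectin receptor chain, was at 45.0, and Itgav, a chain of receptors for vitronectin and latent TGF-beta, at 19.4. Itga7 was above Itga5 in 9 of 12 libraries, so that pair was not separated in every animal, while Itga5 was above Itgav and Itgav above Itga8 in 12 of 12. Together these 3 chains made up 90.4% to 95.7% of the summed alpha chain level in each library. Itga8, whose chain pairs with beta 1 to bind nephronectin and other RGD ligands, followed at 4.39. Lower still were Itga2b (1.22), Itga6 (0.608), Itga3 (0.514), Itga1 (0.374) and Itga11 (0.302), and of these Itga2b was above Itga6 in 12 of 12 libraries. Itga6 was above Itga3 in 8 of 12, Itga3 above Itga1 in 4 of 12 and Itga1 above Itga11 in 8 of 12, so the order of the last 4 was not fixed. Itga2b encodes the platelet alpha chain, while 0 of 5 platelet markers reached a mean of 1 CPM and Itgb3, its usual partner, was at 0.576 CPM.

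One beta chain dominated. Itgb1 (GRCm38 chr8:128685654-128733200, plus strand), the partner of the alpha 5, alpha 7 and alpha 8 chains, had a mean of 216 FPKM, 50.4-fold above Itgb5 at 4.29, and ranked 210 among the detected genes. It made up 94.98% to 98.05% of the summed beta chain level in each library. Itgb4 (0.747), Itgb8 (0.450) and Itgb2 (0.345) followed, with Itgb4 above Itgb8 in 7 of 12 libraries. The summed alpha chains were 0.463 to 0.686 of the summed beta chains.

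The laminin chains with the highest mean level in FPKM were Lamc1 (30.6), Lamb2 (22.9) and Lama2 (15.9), a gamma, a beta and an alpha chain, followed by Lamb1 (4.41). Lamc1 was above Lamb2 in 10 of 12 libraries and Lamb2 above Lama2 in 11 of 12. Lama5 (2.23), Lama3 (1.87), Lamc3 (1.14) and Lama4 (0.338) were lower. Lama2 made up 66.7% to 89.0% of the laminin alpha chains, Lamb2 69.4% to 90.1% of the beta chains and Lamc1 72.4% to 92.7% of the gamma chains.

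**Figure D1:**
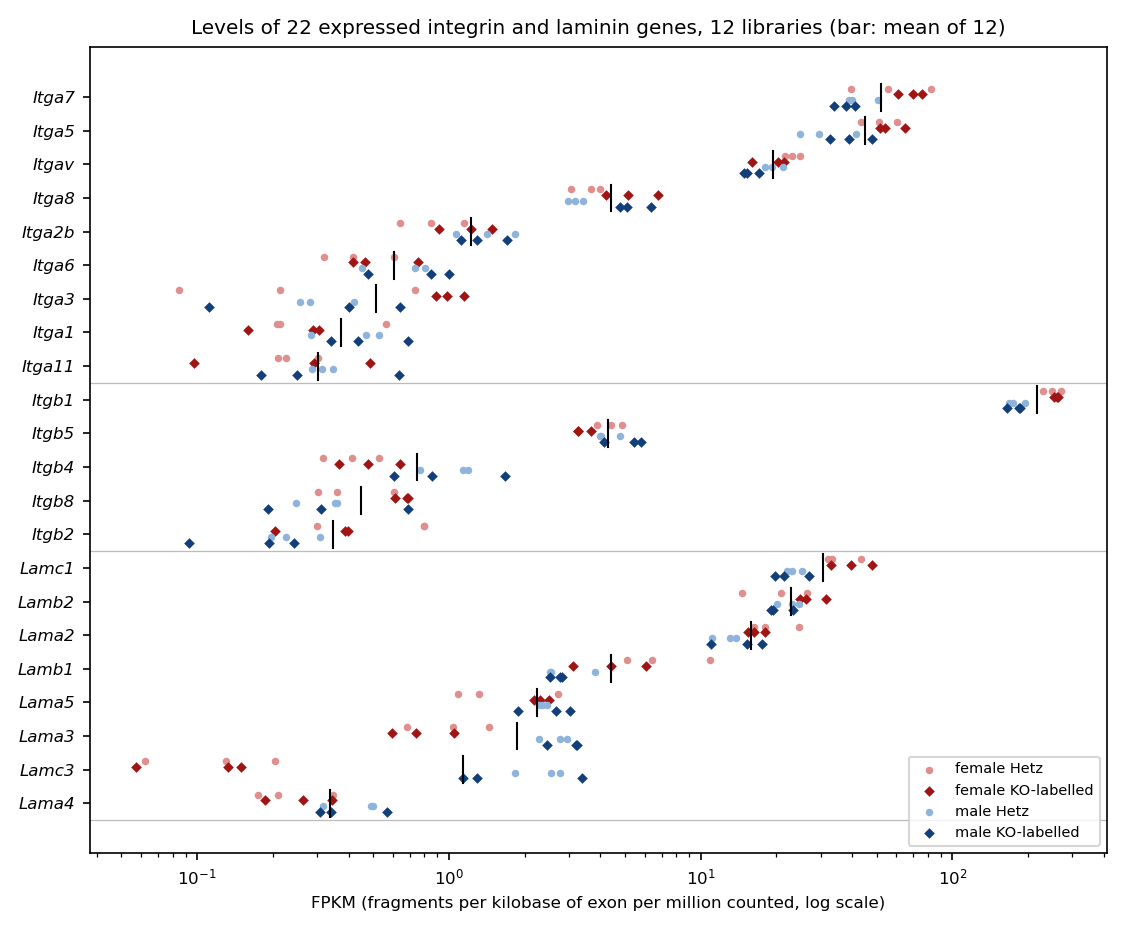
Level of 22 expressed integrin and laminin genes (FPKM, log scale) in the 12 libraries, with female Hetz and KO-labelled animals in red and male ones in blue; black bars are means of 12. Itgb1 lies highest, at a mean of 216, and Lamc3 shows the widest gap between the female and the male libraries.

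In KO-labelled against Hetz cells, 1 member passed the test in males, Itga8, and none in females. The test was edgeR's quasi-likelihood test in each table with Benjamini-Hochberg adjustment over all genes tested, at an adjusted p under 0.05. In females 0 of 25 tested members passed, 2.27% of all tested genes did, and 8 of the 25 (32%) had an unadjusted p under 0.05, beside 17.9% of all tested genes. DESeq2 called 1 of them in females, Itga3, and limma voom called 0. In males 1 of 24 tested members passed, against 0.861% of all genes, and 2 of the 24 (8.33%) had an unadjusted p under 0.05, beside 12.4% of all tested genes. When the female and the male changes were averaged in 1 fit of the 12 libraries, 1 of 28 members passed, again Itga8, against 3.41% of all genes. No member passed the test of the difference between the female and the male change (0 of 28, and 0 by DESeq2 and by limma voom), where 0.00677% of all genes passed. For that difference 3 of 28 members (10.7%) had an unadjusted p under 0.05, beside 12.4% of all genes. All 23 expressed members passed the count filter in each sex. Their median log2 fold change was 0.09 in females and 0.02 in males, beside 0.00 and 0.01 for all genes. A count of 0 or 1 among so few genes is near what those shares give, and the chains are described one by one.

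**Figure D2:**
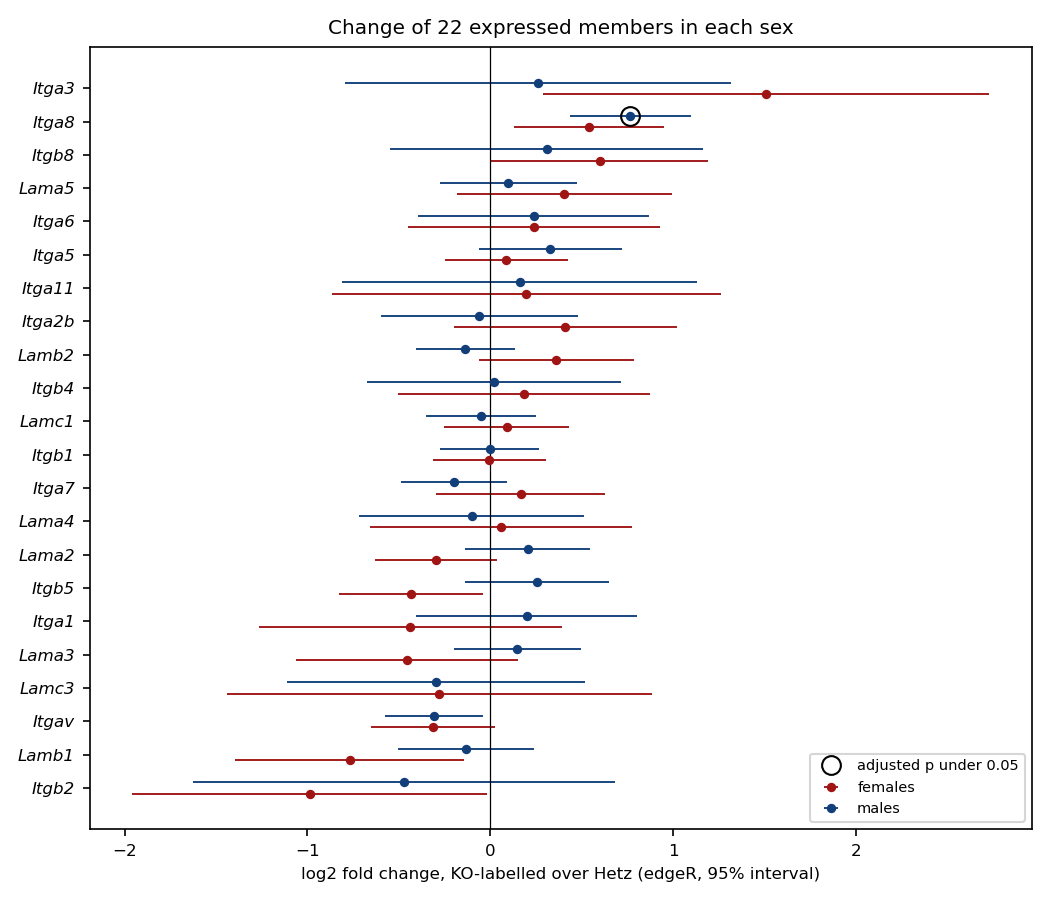
Log2 fold change of KO-labelled over Hetz libraries (horizontal axis) for 22 expressed members in females (red) and males (blue), with 95% intervals from edgeR; the ring marks an adjusted p under 0.05. Itga8 in males is the only ringed point, at 0.77, and Itgb1 lies next to 0 in both sexes.

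Itga8 (ENSMUSG00000026768, GRCm38 chr2:12106632-12301922, minus strand) was higher in the KO-labelled animals of both sexes, and the call was made in males. In females it was at 27.0, 29.3 and 22.5 CPM in Hetz and 37.9, 50.1 and 30.9 CPM in KO-labelled libraries. In males it was at 23.4, 25.3 and 21.9 CPM in Hetz and 47.0, 35.2 and 37.6 CPM in KO-labelled libraries. No KO-labelled library fell into the Hetz range of its own sex. In males Itga8 rose by 0.77 ± 0.15 on the log2 scale (standard error, 1.70-fold; edgeR adjusted p = 0.0349, 95% interval 0.44 to 1.095). The female log2 fold change was 0.54 ± 0.19 (adjusted p = 0.170, interval 0.13 to 0.95). Averaged over the sexes it rose by 0.65 ± 0.12 (adjusted p = 0.00537). The 2 changes differed by -0.22 (adjusted p = 0.766, interval -0.74 to 0.30), so no difference between the sexes was shown. The male call was lost without Hetz204 (adjusted p = 0.230), Hetz245 (0.112), Hetz249 (0.240) or KO240 (0.319), and in a fit of all 12 libraries (0.0613), in a range of 0.00153 to 0.319 over the alternatives. The average was called without each library in turn and by each other tool run (adjusted p 1.5e-05 to 0.0232). Itga8 overlaps the gene E030013I19Rik over 5.05% of its exon length, and the counting did not use strand. The summed satellite cell markers given above were lower in the KO-labelled females without overlap and overlapped between the male groups. Sdc4 made up the largest part of that sum, at 6948 to 8274 CPM in female Hetz and 4606 to 6126 CPM in female KO-labelled libraries. Not all markers moved with it. Des, for instance, was at 838, 1148 and 547 CPM in female Hetz and 1014, 1114 and 1376 CPM in KO-labelled libraries. The part of these markers in the Itga8 values was not tested. As a share of the summed alpha chains Itga8 had a mean of 2.58% in Hetz and 3.49% in KO-labelled females, where the groups overlapped (2.27% to 2.87% against 2.76% to 4.32%), and of 3.18% and 5.30% in males, where they did not.

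**Figure D3:**
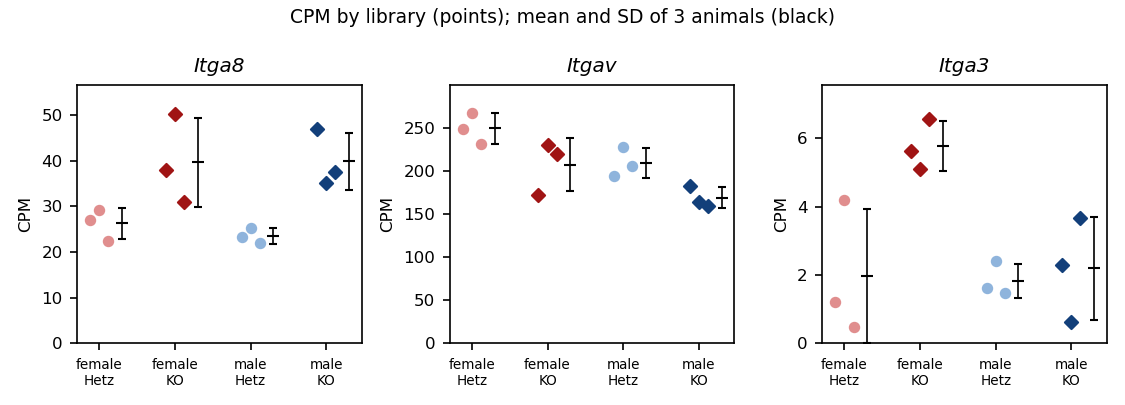
CPM (vertical axis, from 0) of Itga8, Itgav and Itga3 in each library of the 4 groups; black marks are the mean and SD of 3 animals. The KO-labelled points lie above the Hetz points of the same sex for Itga8 and below them for Itgav.

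The promoters of Itga8, the called member, and of Itgb1, the highest member, are shown because the study concerns a regulator of NRF2. Sequences are RefSeq windows on GRCm38.p6, from 250 bases before to 50 after the annotated start, written 5' to 3' on the gene's strand. The core of the antioxidant response element, TGACNNNGC, was searched on both strands and is in capitals where present.
Itga8, chr2:12301895-12302194, minus strand: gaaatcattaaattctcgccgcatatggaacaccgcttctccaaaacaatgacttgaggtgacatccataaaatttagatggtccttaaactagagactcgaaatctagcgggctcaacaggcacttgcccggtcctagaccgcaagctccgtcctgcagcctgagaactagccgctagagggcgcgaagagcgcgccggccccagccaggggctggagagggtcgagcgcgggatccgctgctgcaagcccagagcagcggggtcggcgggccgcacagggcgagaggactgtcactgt
Itgb1, chr8:128685404-128685703, plus strand: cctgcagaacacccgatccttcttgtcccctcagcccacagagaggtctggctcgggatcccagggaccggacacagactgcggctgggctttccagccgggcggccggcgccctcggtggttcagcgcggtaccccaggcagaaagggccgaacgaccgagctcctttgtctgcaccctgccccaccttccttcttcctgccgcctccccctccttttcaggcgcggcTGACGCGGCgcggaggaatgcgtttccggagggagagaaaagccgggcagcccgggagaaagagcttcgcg
The Itga8 window holds 0 matches and the Itgb1 window holds 1, starting 21 bases before the start (position -21). Of all 32851 promoter windows, 12.4% hold a match. Promoter entries were found for 23 of the 37 members, and 4 of the 23 had a match. Of the 14 expressed members with an entry 1, Itgb1, had a match. Sequence outside these windows was not searched. A match is a description of letters and not a bound site, and its first letters, TGAC, also open the AP-1 and CRE motifs.

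Itgav was lower in KO-labelled animals of both sexes without passing the test. Itgav (GRCm38 chr2:83724397-83806916, plus strand) was at 248, 267 and 232 CPM in female Hetz and 172, 230 and 219 CPM in female KO-labelled libraries. In males it was at 194, 228 and 206 CPM in Hetz and 183, 163.9 and 159 CPM in KO-labelled libraries. The KO-labelled libraries lay below every Hetz library in each sex, though in females the highest KO-labelled value, 230 CPM, lay next to the lowest Hetz value, 232 CPM. Its log2 fold change was -0.31 in both sexes (standard errors 0.16 and 0.12, edgeR adjusted p = 0.314 and 0.327) and -0.31 ± 0.10 on average (adjusted p = 0.103). DESeq2 called it beside Itga8 in the average. For Itga8 and Itgav the KO-labelled and Hetz libraries did not overlap, in the same direction, in both sexes, a pattern that 3.51% of genes tested in both tables showed. Taken by sex, 7 of 25 members in females (22.1% of all genes) and 3 of 24 in males (17.4% of all genes) had groups that did not overlap.

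The 2 most abundant alpha chains and the main beta chain gave no call. Itga7 was at 449, 666 and 319 CPM in female Hetz and 612, 493 and 563 CPM in female KO-labelled libraries, and at 324, 409 and 313 against 305, 274 and 333 CPM in males. Its groups overlapped in both sexes, with log2 fold changes of 0.17 ± 0.21 in females and -0.20 ± 0.13 in males (edgeR adjusted p = 0.726 and 0.617). Itga5 was at 215, 297 and 252 CPM in female Hetz and 254.9, 320 and 266 CPM in female KO-labelled libraries, and at 145, 203.7 and 122.95 against 236, 162 and 193 CPM in males. Again the groups overlapped, at 0.09 ± 0.16 and 0.33 ± 0.18 (adjusted p = 0.804 and 0.514). Of the 23 expressed members Itgb1 had the log2 fold change nearest to 0 in each sex. It was at 1100, 1017 and 939 CPM in female Hetz, 1035, 1069 and 1064 CPM in female KO-labelled, 714, 790 and 688 CPM in male Hetz and 758, 750 and 674 CPM in male KO-labelled libraries. The 95% intervals of its log2 fold change were -0.31 to 0.30 in females and -0.28 to 0.27 in males.

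Among the low integrin chains, Itga3, Itgb5 and Itgb8 separated the groups in females, as did 22.1% of all tested genes. The nearest Hetz and KO-labelled values lay close together for Itgb8 (6.69 and 6.76 CPM) and Itgb5 (13.7 and 13.04 CPM). Itga3, an alpha chain of epithelial laminin receptors, was at 1.22, 4.20 and 0.485 CPM in female Hetz and 5.63, 5.10 and 6.55 CPM in KO-labelled libraries, and at 1.61, 2.40 and 1.47 against 2.29, 0.636 and 3.65 CPM in males. Female Hetz165 was the high library of its group. It also had the highest fibro-adipogenic marker sum, 7617 CPM against 4750 to 5415 CPM in the other female libraries. The markers in that sum did not move together. Among the female libraries Col3a1 (3433 CPM) and Col1a1 (1151 CPM) were highest in Hetz165, while Dcn (236 CPM) was lowest there. The part of these markers in the values of Hetz165 was not tested. The female log2 fold change was 1.51 ± 0.55 (edgeR adjusted p = 0.196), and without Hetz165 it was 2.66 (adjusted p = 0.00378) and passed, in a range of adjusted p of 0.000365 to 0.474 over the alternatives. The male value was 0.26 ± 0.49, and the male groups overlapped. Itgb8, which pairs with alpha v, was at 3.96, 6.69 and 3.34 CPM in female Hetz and 6.76, 7.53 and 7.60 CPM in KO-labelled libraries (log2 fold change 0.60 ± 0.27, adjusted p = 0.276; 0.91 with an adjusted p of 0.0487 without Hetz165, the lowest over the alternatives, with 0.588 the highest). In males Itgb8 was at 3.91, 2.73 and 3.98 against 3.44, 2.12 and 7.63 CPM, where KO255, also the male library with the highest endothelial marker sum (351 CPM), alone was high. Itgb5, another partner of alpha v, was at 17.4, 13.7 and 15.7 CPM in female Hetz and 13.04, 11.6 and 11.5 CPM in KO-labelled libraries, and at 14.3, 14.1 and 17.1 against 19.3, 14.7 and 20.6 CPM in males. Its change was -0.43 ± 0.18 in females and 0.26 ± 0.18 in males (adjusted p = 0.234 and 0.638), and the difference of -0.69 had the smallest p of the members without passing (adjusted p = 0.283).

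Itga6 and Itgb4, which together form the hemidesmosome receptor for laminin, were low. Itga6 was at 3.81, 5.55 and 2.91 CPM in female Hetz and 4.24, 3.80 and 6.90 CPM in KO-labelled libraries, and at 7.36, 6.71 and 4.14 against 4.38, 7.77 and 9.13 CPM in males. Itgb4 was at 2.22, 2.91 and 3.72 against 2.58, 4.48 and 3.36 CPM in females and at 8.36, 7.96 and 5.40 against 4.25, 6.00 and 11.7 CPM in males. For both genes the groups overlapped in each sex, and the lowest adjusted p was 0.736. Itgb2, the leukocyte chain, was at 2.43, 2.44 and 0.915 CPM in female Hetz and 1.18, 0.622 and 1.22 CPM in KO-labelled libraries (log2 fold change -0.99 ± 0.45, edgeR adjusted p = 0.274). In males Itgb2 was at 0.690, 0.600 and 0.943 against 0.742, 0.283 and 0.587 CPM, with overlapping groups (-0.47 ± 0.53, edgeR adjusted p = 0.794). Beside Itgb2, the summed leukocyte markers (6 of 15 expressed) were at 119 to 168 CPM in female Hetz libraries. In female KO-labelled libraries they were at 49.2 to 85.4 CPM. Of 13 tested, 3 fell in females, Cd74, H2-Ab1 and Lyz2, beside 2.27% of all tested genes called. These 3 had the highest means of the list, at 39.2, 19.8 and 13.8 CPM. Not every marker moved with them. Ptprc (1.56 to 3.22 against 0.580 to 2.09 CPM) and Csf1r (0.370 to 1.35 against 0.696 to 1.24 CPM) overlapped in females. In males the leukocyte sums overlapped, at 36.5 to 132 CPM in Hetz and 72.7 to 102 CPM in KO-labelled libraries. The part of these cells in the Itgb2 value was not tested. The collagen receptor chains Itga1 and Itga11 ran over the 12 libraries from 2.96 to 12.8 CPM and from 0.498 to 3.26 CPM, and Itga2b from 3.49 to 9.97 CPM. Their log2 fold changes in females and males were -0.44 ± 0.38 and 0.20 ± 0.28 for Itga1, 0.20 ± 0.49 and 0.16 ± 0.45 for Itga11 and 0.41 ± 0.28 and -0.06 ± 0.25 for Itga2b. None of these was called, and their groups overlapped in each sex. Of the chains that were not expressed, Itgb3 and Itgb6 passed the count filter in females and Itga9 in males. Itgb6 was at 0.951, 1.76 and 1.24 CPM in female Hetz and 0.805, 0.560 and 0.812 CPM in KO-labelled libraries, which did not overlap (edgeR adjusted p = 0.277).

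Of the laminin chains none passed in either sex, and Lamb1 had the largest female change. Lamb1, a beta chain made by many tissues, was at 50.5, 108 and 63.6 CPM in female Hetz and 43.6, 60.1 and 30.9 CPM in female KO-labelled libraries. In males it was at 25.2, 37.9 and 24.9 CPM in Hetz and 27.9, 25.0 and 27.3 CPM in KO-labelled libraries. The female groups overlapped, Hetz165 stood highest, and the log2 fold change was -0.77 ± 0.28 (edgeR adjusted p = 0.198), with -0.13 ± 0.17 in males (0.824). Lamb2, the beta chain enriched at the neuromuscular junction, was at 127, 162 and 88.5 CPM in female Hetz and 151, 192 and 159 CPM in female KO-labelled libraries, and at 141, 150.2 and 122.9 against 118, 116 and 142 CPM in males. Its log2 fold changes were 0.36 ± 0.20 and -0.14 ± 0.13 (adjusted p = 0.357 and 0.725). The ratio of Lamb2 to Lamb1 per length was 4.11, 2.44 and 2.27 in female Hetz and 5.64, 5.21 and 8.39 in female KO-labelled libraries, which did not overlap (exact permutation test, two-sided, p = 0.1, the smallest that 3 against 3 allows and unadjusted for the other ratios computed). In males the ratio was 9.11, 6.47 and 8.04 against 6.91, 7.56 and 8.47 (exact permutation p = 0.8). The female Hetz libraries held the 3 lowest ratios of the 12. This ratio did not stand alone among those computed. The shares of Itgb1, Itgav, Lama2, Lamb2 and Lamc1 in their chain classes also separated the female groups. So did the joint share of Itga7, Itga5 and Itgav, each with the same exact permutation p of 0.1.

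**Figure D4:**
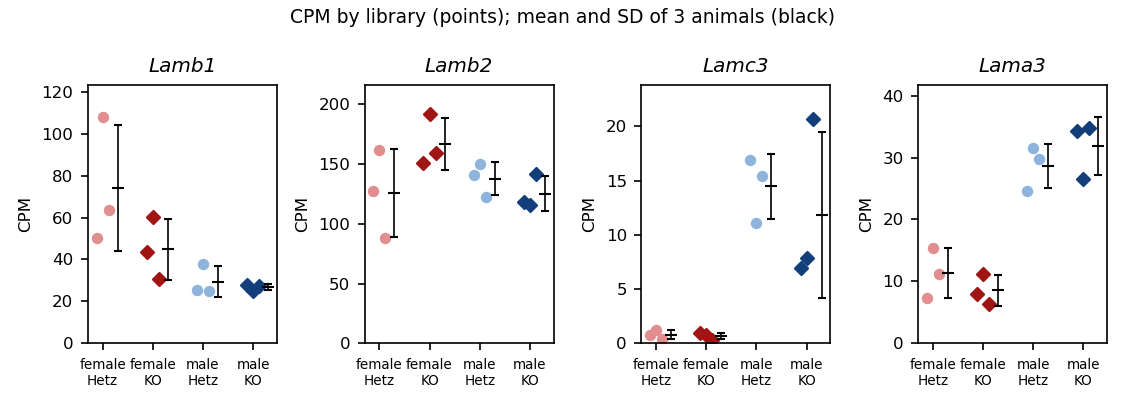
CPM (vertical axis, from 0) of Lamb1, Lamb2, Lamc3 and Lama3 in each library of the 4 groups, with the mean and SD of 3 animals in black. Female Hetz165 is the highest Lamb1 point at 108 CPM, and for Lamc3 and Lama3 every male point lies above every female point.

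Lama2, the alpha chain mutated in merosin-deficient muscular dystrophy, was at 271, 408 and 300 CPM in female Hetz and 298, 272 and 256 CPM in KO-labelled libraries, and at 217, 230 and 184 against 253, 182 and 291 CPM in males. Lamc1, the gamma chain of most laminins, was at 276, 360 and 264 against 397, 328 and 272 CPM in females and at 182, 209 and 191 against 222, 163 and 177 CPM in males. Both overlapped between groups in each sex, with log2 fold changes of -0.30 ± 0.15 and 0.20 ± 0.16 for Lama2 and 0.09 ± 0.16 and -0.05 ± 0.14 for Lamc1. Lama5, an alpha chain of many basement membranes, was at 12.4, 30.9 and 15.0 CPM in female Hetz and 28.6, 24.9 and 26.2 CPM in KO-labelled libraries, and at 26.0, 26.6 and 27.9 against 30.3, 21.5 and 34.5 CPM in males. Hetz165 was again the high female Hetz library, and the groups of Lama5 overlapped in both sexes (edgeR adjusted p = 0.460 and 0.880). Without Hetz165 the female log2 fold change went from 0.40 to 0.87 (adjusted p = 0.0100, the lowest over the alternatives, with 0.778 the highest). Lama4, the alpha chain of vessel and nerve laminin, was at 2.54, 4.20 and 2.10 against 4.13, 2.24 and 3.19 CPM in females and at 6.06, 5.94 and 3.82 against 3.71, 4.10 and 6.85 CPM in males, with overlapping groups. Without Hetz165, 3 members passed in females (Itga3, Itgb8 and Lama5) where 0 did with it, and 1479 genes in all passed where 319 did with it.

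Set against sex and table rather than genotype, 4 of the 23 expressed members had levels that did not overlap between the 6 female and the 6 male libraries, against 10.9% of all tested genes. This set was picked out after the values were seen. Lamc3 (GRCm38 chr2:31887291-31946539, plus strand), a gamma chain of nerve and vessel laminins, was at 0.348 to 1.25 CPM (median 0.801) in the females and 6.95 to 20.7 CPM (median 13.3) in the males, a 17.6-fold ratio of means. Lama3, an alpha chain of epithelial laminin, was at 6.38 to 15.5 CPM (median 9.60) in females and 24.6 to 34.8 CPM (median 30.7) in males, 3.04-fold. Itgb1 went the other way, at 939 to 1100 CPM (median 1049.6) in females and 674 to 790 CPM (median 732) in males. Lamc1 was at 264 to 397 CPM (median 302) in females and 163 to 222 CPM (median 187) in males. The other 19 overlapped. Of the 9 marker lists summed per library, 5 also did not overlap between the female and the male libraries. The endothelial sums (12 of 12 expressed) were 57.2 to 108 CPM in females and 132 to 351 CPM in males, the Schwann and glia sums (6 of 9) 22.7 to 33.7 and 35.0 to 69.3 CPM, and the tenocyte sums (5 of 6) 46.0 to 86.7 and 99.3 to 132 CPM. The satellite cell sums were also higher in the males and the fibro-adipogenic sums higher in the females, as given above. Within these 2 lists not every marker followed the sum. Sdc4 was at 4606 to 8274 CPM in females and 8863 to 11910 CPM in males, while Myf5 (944 to 1915 and 1243 to 1823 CPM) overlapped. Col1a1 was at 305 to 1151 CPM in females and 57.1 to 213 CPM in males, while Gsn (1790 to 2577 and 1864 to 2797 CPM) overlapped. No marker of these 5 lists was at 0 in all 12 libraries. Their part in the Lamc3, Lama3, Itgb1 and Lamc1 levels was not tested. Within the males Lamc3 was at 16.9, 11.1 and 15.5 CPM in Hetz and 6.95, 7.91 and 20.7 CPM in KO-labelled libraries, where KO255 stood apart from the other KO-labelled animals. In the same library the endothelial sum was 351 CPM, against 132 and 154 CPM in the other KO-labelled males, and the Schwann and glia sum 69.3 CPM, against 41.3 and 47.7 CPM, and their part in the high values of KO255 was not tested. The log2 fold change of Lamc3 was -0.28 ± 0.54 in females and -0.30 ± 0.37 in males, and that of Lama3 was -0.46 ± 0.28 and 0.15 ± 0.16, none of them called. Without KO255, Lamc3 joined Itga8 as a called member in males, 2 in place of 1.

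Genes that work with these chains were followed in 2 lists. The integrin adhesion machinery list held 35 genes for the proteins that link integrin tails to actin. In females 0 of 32 tested passed and in males 0 of 31, while in the average of both sexes 3 of 33 rose and 0 fell. Over all genes 2.27%, 0.861% and 3.41% were called in these comparisons. Those 3 were Bcar1, the scaffold p130Cas, Vasp, an actin filament elongation factor, and Kank2, a talin binder, named because they passed there. Bcar1 was at 56.4, 59.1 and 51.8 CPM in female Hetz and 89.4, 70.6 and 78.5 CPM in female KO-labelled libraries, and at 44.0, 39.1 and 42.1 against 50.4, 59.3 and 67.5 CPM in males (average log2 fold change 0.48 ± 0.09, edgeR adjusted p = 0.00641). Its groups did not overlap in either sex. Vasp rose by 0.70 ± 0.14 (adjusted p = 0.00637) and Kank2 by 0.59 ± 0.15 (adjusted p = 0.0376) on average. Bcar1 and Vasp were called in 16 of 16 alternatives and Kank2 in 7 of 16, with a highest adjusted p of 0.109. Kank2 lost its call without any one of female Hetz164, Hetz181, KO166, KO178 and KO188 and male Hetz245, Hetz249, KO240 and KO255. The list's median log2 fold change was 0.17 in females and 0.12 in males, beside 0.00 and 0.01 for all genes, and was not tested as a set.

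The list of basement membrane components and other laminin receptors held 32 genes. In females 0 of 31 tested passed, in males 1 rose and 1 fell, and in the average 2 rose and 1 fell, again beside 2.27%, 0.861% and 3.41% of all genes. Utrn, which encodes utrophin, the homologue of dystrophin that binds the laminin receptor dystroglycan, was at 168, 171 and 144 CPM in female Hetz and 231, 211 and 234 CPM in female KO-labelled libraries. In males Utrn was at 162, 134 and 150 CPM in Hetz and 248, 238 and 227 CPM in KO-labelled libraries, and it rose by 0.68 ± 0.13 (edgeR adjusted p = 0.0259). Sdc1, the heparan sulfate proteoglycan syndecan 1, was at 41.3, 54.0 and 54.5 against 39.9, 34.5 and 35.6 CPM in females. In males Sdc1 fell by 0.77 ± 0.15 (adjusted p = 0.0296), from 41.6, 55.8 and 41.3 to 26.4, 26.1 and 28.4 CPM. The groups of Utrn and of Sdc1 did not overlap in either sex. Both male calls were lost without Hetz204, Hetz245, Hetz249 or KO240 (0 of the 2 left), while in the average Utrn, Sdc1 and Nid1 were called in 16 of 16 alternatives. Nid1, the linker nidogen 1 that joins the laminin gamma 1 chain to collagen IV, rose on average by 0.63 ± 0.11 (adjusted p = 0.00368). Its laminin partner Lamc1, given above, had a 95% interval of -0.21 to 0.24 for the same average. The list's median was 0.17 in females and 0.06 in males. In females the 2 lists together had 0 called genes with all 6 libraries and 22 without Hetz165.

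**Figure D5:**
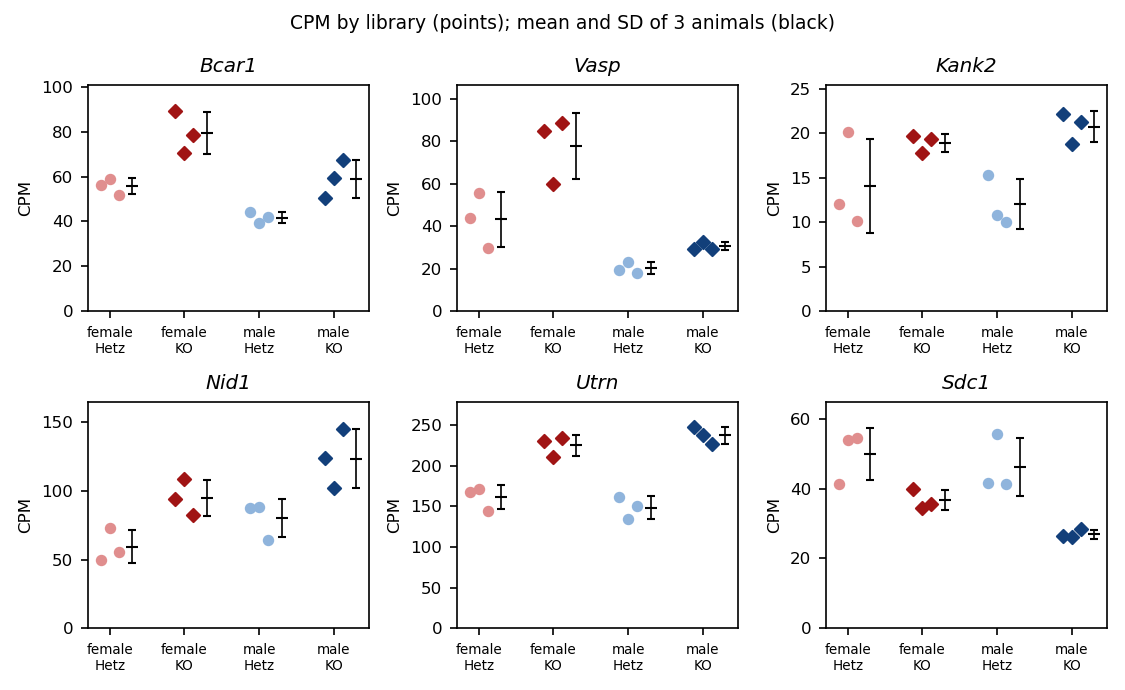
CPM (vertical axis, from 0) in each library of 6 partner genes, with the mean and SD of 3 animals in black. For Utrn and Nid1 the KO-labelled points lie above the Hetz points in each sex, and for Sdc1 they lie below.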

How the data were processed

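Per the labels' protocols, RNA (NucleoSpin RNA XS) was copied by Smart-Seq2 and fragmented with Tn5. FeatureCounts 2.0.0 made both deposited tables of fragment counts per gene over the exons of Ensembl release 99 on GRCm38, per the file headers, with no setting for strand or for reads that map to several places. Every deposited column holds whole counts, not estimated counts. The submitters' processing notes also name STAR and DESeq2. Symbols were matched for 55144 of 55385 genes.

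CPM is a count scaled by the library's total. Tests used edgeR 4.0.16 in R 4.3.3 (TMM, filterByExpr with a minimum count of 10, robust glmQLFit and glmQLFTest, adjusted p under 0.05) on the 6 libraries of each table. The difference and the average used 1 fit of 12 libraries. Members that entered a fit had passed that filter. DESeq2 1.42.0, limma 3.58.1 (voom), other size factors, no filter, 1 fit of 12 libraries and leaving out each library were the alternatives. The scripts were tested on simulated data. Ratios used exact permutation tests (scipy). No pair of replicates agreed within sampling noise (12.4 to 65.2 chi-square units per degree of freedom). Animal numbers are unique, so nothing pairs libraries. The labels number the animals, and p-values measure the spread between them.

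The members and lists were chosen with earlier results of these data known. Members named singly by rule were those called, the 5 with the smallest p in each sex, the 4 highest per class and a list of known muscle chains. Itgb2, Itgb6, Lama1, Lama3 and Lamc3 were described singly outside that rule. Partner genes were named if called. Results of 1 expressed member are not reported here; it is counted in the totals.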

Additional observations from a re-analysis of the deposited data

How the results depend on the processing

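The count of 23 expressed members was 27 at a mean of at least 0.5 CPM, 21 at 2 CPM and 19 with 1 CPM required in every library. Members called in females numbered 1 with DESeq2, 2 with no filter on low counts (Itga3 and Lamb1) and 0 to 3 leaving out 1 library. In males they numbered 0 in the fit of all 12 libraries and 0 to 2 leaving out 1 library. In the average they numbered 3 with DESeq2, 3 with no filter and 1 to 3 leaving out 1 library. The difference gave 0 in every alternative run. Over all genes, females had 723 calls with DESeq2, 1000 with no filter and 144 (without KO188) to 1479 (without Hetz165). Males had 280, 375 and 41 (without KO240) to 294 (without KO255). Partner genes called in females numbered 7 with DESeq2, 8 with no filter, 3 in the fit of all 12 libraries and 0 to 22 leaving out 1 library, and in males 5, 5 and 0 to 3. The causes were not tested.

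Log2 fold changes near 0 turned sign. Itgb1 in females was 0.052 without a composition factor and Itgb4 in males -0.063 with limma voom. Leaving out 1 library, the female values ran from -0.031 to 0.19 for Itga5, -0.11 to 0.49 for Itga6, -0.059 to 0.44 for Itga7, -0.0655 to 0.0785 for Itgb1, -0.051 to 0.39 for Itgb4, -0.13 to 0.37 for Lama4 and -0.015 to 0.21 for Lamc1. The male values ran from -0.30 to 0.69 for Itga3, -0.054 to 0.062 for Itgb1, -0.47 to 0.27 for Itgb4, -0.33 to 0.63 for Itgb8, -0.41 to 0.038 for Lama4, -0.037 to 0.26 for Lama5, -0.25 to 0.077 for Lamb1 and -0.21 to 0.032 for Lamc1. For Itga8 and 6 partner genes in the average the alternatives were added after seeing the data, and Kank2 alone lost its call, in 9 of 16. Other scalings moved the median of all genes by at most 0.06. Of the 14 chains under 1 CPM, those that did not pass the count filter were not tested.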
